A study of Saccharomyces cerevisiae with 24 samples.

Results

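Trehalose and glycogen are the storage carbohydrates of budding yeast, and the genes described here encode 10 enzymes or subunits that make and break them. They were chosen by name: TPS1, TPS2, TSL1, NTH1, GSY1, GSY2, GPH1, GDB1, PGM2 and UGP1. Each name matched 1 row, so the set holds 10 of the 7126 genes in the count table, and all 10 had enough counts to be tested. Both stores start from glucose 6-phosphate. Phosphoglucomutase (PGM2) converts it to glucose 1-phosphate, and UGP1 turns that into UDP-glucose, the donor for both polymers. The trehalose synthase complex joins UDP-glucose to glucose 6-phosphate through Tps1 and removes the phosphate through Tps2, with Tsl1 as a regulatory subunit, and the neutral trehalase Nth1 cleaves the product. Glycogen synthase (GSY1, GSY2) extends glycogen, while the phosphorylase Gph1 and the debranching enzyme Gdb1 take it apart. In yeast these genes are known to be low in rapidly growing cells on glucose and to rise as glucose runs out or under heat and other stresses, in large part through the transcription factors Msn2 and Msn4, which bind the stress response element (STRE).

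PolyA RNA was sequenced from haploid cells of the BY4741 background in 24 libraries, 3 for each of 8 groups. The strain called crz1 lacked Crz1, the transcription factor activated by the calcium-dependent phosphatase calcineurin (crz1delta::LEU2), and crz1 cnb1 cells had in addition lost Cnb1, calcineurin's regulatory subunit (cnb1delta::KanMx). Both were MATa with the his3delta1, ura3delta0, leu2delta0 and lys2delta0 alleles, and both carried on chromosome VI a HYG marker with a TEFp-driven gene for GFP(Y66F). Cells grew in synthetic medium whose nitrogen source was ammonium chloride. Samples came from untreated cells (0 h) and from cells kept for 12, 48 or 72 h with CaCl2 at 200 mM, and treated cultures were diluted every 12 h so that they stayed in logarithmic growth. The time courses were run in triplicate, which is all that is stated about the replicates, so p-values cover the spread between these libraries. A strain with intact CRZ1 is not analysed here, and the untreated libraries are from 0 h only. Changes from 0 h therefore cannot be told apart from time in culture and dilution. The question the series addresses is which responses to chronic CaCl2 depend on calcineurin but not on Crz1.

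Total counts were between 21582317 and 22016465 per library. CRZ1 had 0 to 4 counts in every library, and CNB1 had 3 to 22 counts in the crz1 cnb1 libraries against 1581 to 3043 in crz1. The labelled cell type was checked with mating genes: the 7 a-specific genes summed to 939 to 4701 counts per 1000000 (CPM), the 4 alpha-specific genes to 20.7 to 47.1 CPM and the 5 sporulation genes to 26.2 to 66 CPM. The a-specific sum was 3597 to 4701 CPM at 0 h and 939 to 2151 CPM in CaCl2. All 7 a-specific genes fell in crz1 at 12 and 72 h and in crz1 cnb1 at 48 and 72 h, and 6 fell in crz1 at 48 h and in crz1 cnb1 at 12 h. SGA1 is both a sporulation marker and 1 of the 19 further glycogen genes below. The part of the marker genes in the results below was not tested. Values in CPM below are scaled by trimmed mean of M values (TMM). They compare 1 gene between libraries, and transcripts per 1000000 (TPM) are used wherever levels of different genes are compared.

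The upstream DNA of the genes shared a feature that the choice by name did not use. The 500 bases before each start codon in genome build R64 were searched on both strands for the STRE letters AGGGG, which read CCCCT on the other strand, and no other motif was searched. Each of the 10 genes had at least 1 match, 9 had 2 or more and 6 had 3 or more. Among 6002 genes with such a window the shares were 34.1%, 8.13% and 1.83%. TPS1 had 6 matches, TSL1 and PGM2 had 5 each, TPS2 and UGP1 had 4, NTH1 had 3, GSY1, GSY2 and GPH1 had 2 and GDB1 had 1. All 4 matches of UGP1 lay inside the neighbouring gene AIM26. With matches inside neighbouring genes left out, 9 of the 10 genes had at least 1 and 8 had 2 or more, against 26.7% and 6.08% of all genes. A match is a run of letters and does not show that a factor binds there.

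**Figure D1:**
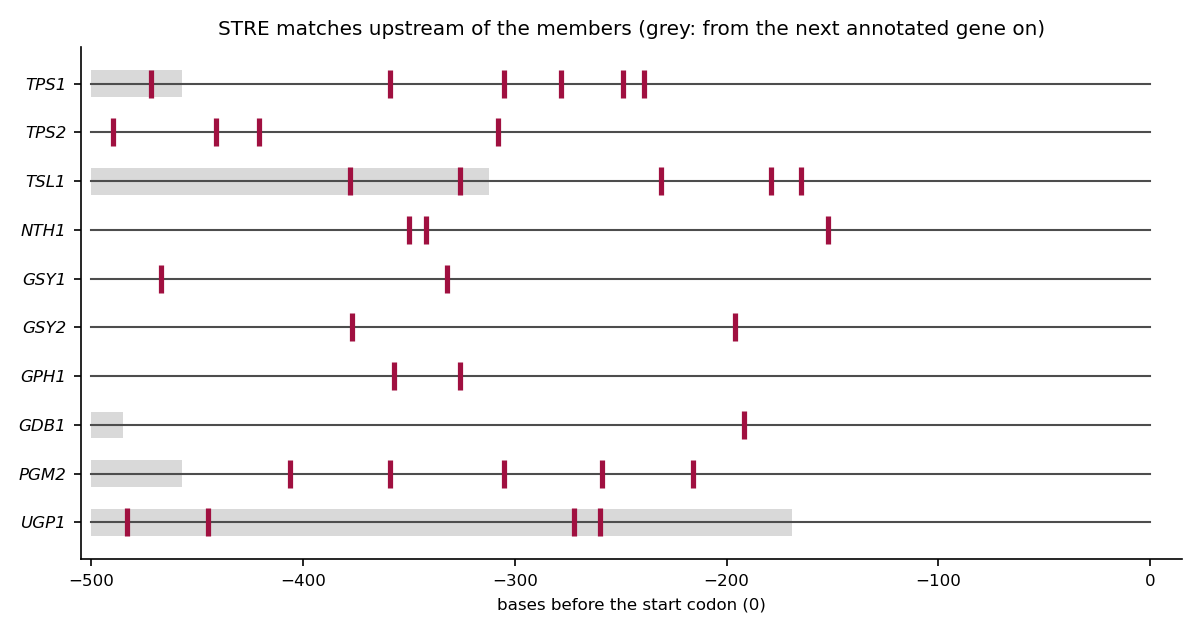
Positions of STRE matches (red ticks) in the 500 bases before the start codon of each of the 10 genes, with bases before the start codon on the x axis. Grey bars run from the next annotated gene outward. PGM2 has 5 matches outside neighbouring genes, and all 4 of UGP1 lie in the grey bar.

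Stretches from 5 of these windows are shown as examples of how the matches lie: 4 are from the genes whose untreated crz1 libraries differed most below (GSY1, GPH1, TSL1 and PGM2) and 1 is from NTH1, whose untreated libraries differed least. They are given 5′ to 3′ on the strand of the gene with the STRE letters in capitals. The sequences are from RefSeq's build R64: TSL1 from chrXIII:70378-70473 on the plus strand, PGM2 from chrXIII:477803-477980 on the minus strand, GSY1 from chrVI:176704-176738 on the minus strand, GPH1 from chrXVI:860934-860999 on the plus strand and NTH1 from chrIV:452798-452840 on the minus strand. The TSL1 stretch begins 246 bases before its start codon, and the closest base of any stretch is 151 bases before one.
TSL1: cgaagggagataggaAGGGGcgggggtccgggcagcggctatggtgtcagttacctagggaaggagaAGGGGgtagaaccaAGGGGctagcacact
PGM2: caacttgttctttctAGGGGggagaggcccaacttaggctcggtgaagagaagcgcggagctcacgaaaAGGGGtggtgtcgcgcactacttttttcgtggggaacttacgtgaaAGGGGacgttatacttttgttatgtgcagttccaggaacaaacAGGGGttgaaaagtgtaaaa
GSY1: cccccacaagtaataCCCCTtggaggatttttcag
GPH1: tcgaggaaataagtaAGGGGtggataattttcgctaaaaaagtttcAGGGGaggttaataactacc
NTH1: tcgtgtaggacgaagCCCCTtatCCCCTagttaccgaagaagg
Whether the STRE letters bear on the changes described below was not tested.

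The untreated cultures did not start alike, and this spread bears on every change from 0 h. For 6 of the 10 genes (TPS2, TSL1, GSY1, GSY2, GPH1 and PGM2), library 1 of each strain was more than 2-fold below both other untreated libraries. Of all 6089 genes tested, 2.1% did so in both strains, and 3.4% did so in crz1 and 2.64% in crz1 cnb1 taken alone. GSY1, the minor glycogen synthase isoform, stood furthest apart: it had 4.86 CPM in library 1 of crz1 against 196 and 156 CPM in libraries 2 and 3, and 4.87 CPM against 136 and 119 CPM in crz1 cnb1. The mean of libraries 2 and 3 was thus 36.2 and 26.2 times library 1. The same ratio was 11.1 and 7.13 for GPH1, 7.45 and 4.11 for TSL1, 6.26 and 5.71 for PGM2, 5.81 and 5.23 for GSY2 and 5.13 and 4.13 for TPS2 in crz1 and crz1 cnb1. It was smaller for TPS1 (2.03 and 1.63), UGP1 (1.6 and 1.54), GDB1 (1.41 and 1.26) and NTH1 (1.17 and 1.07), so the enzymes of breakdown split: GPH1 went with the synthases and the trehalase gene NTH1 hardly varied.

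**Figure D2:**
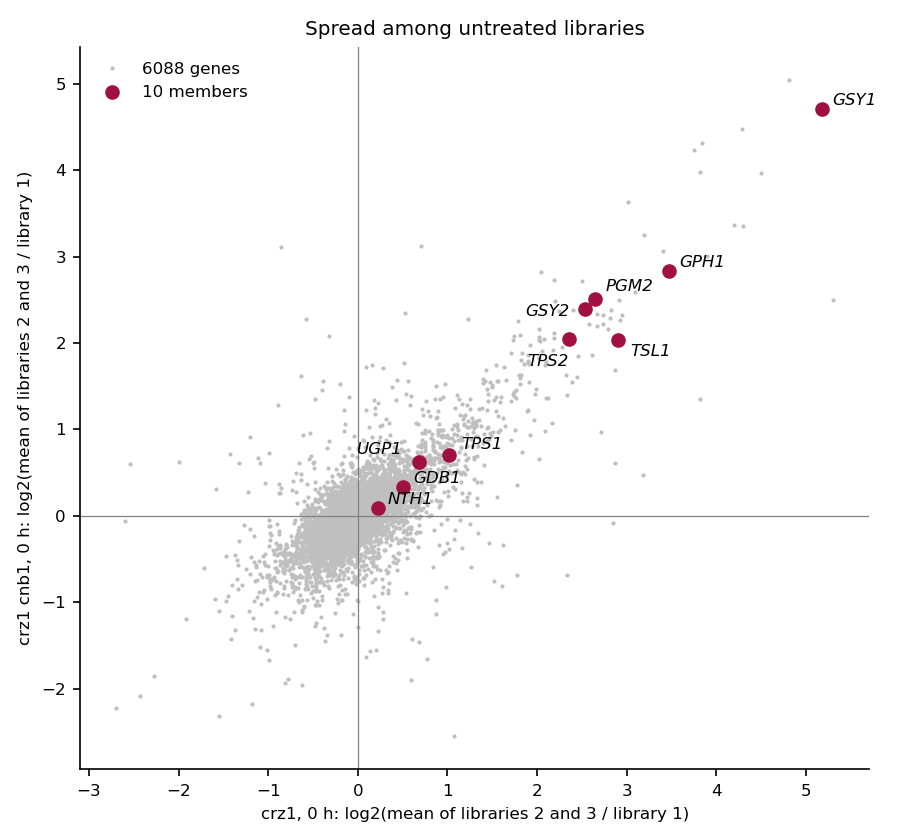
Each point is a gene, with the log2 ratio of the mean of untreated libraries 2 and 3 to untreated library 1 in crz1 on the x axis and in crz1 cnb1 on the y axis. Grey points are the 6088 genes with a ratio in both strains and red points are the 10 storage carbohydrate genes. GSY1 lies at 5.18 and 4.71, near the edge of the cloud, and NTH1 at 0.22 and 0.09, near its centre.

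Other genes went the same way. More than 2-fold lower in untreated library 1 of both strains were 9 of 20 Msn2/Msn4 stress genes, 3 of 7 hexose phosphorylation genes, 4 of 19 further trehalose and glycogen genes and 2 of 21 signalling genes, and none of the 7 a-specific, 4 alpha-specific or 5 sporulation markers. At 12 h, library 1 was lowest and library 3 highest in both strains for 8 of the 10 genes, all but NTH1 and GDB1, against 15% of all genes. At 48 h in crz1, library 1 was the highest for 9 of the 10 genes, all but UGP1, against 41.8% of all genes. It was more than 2-fold above both other libraries for TPS1, TSL1 and PGM2, against 1.58% of all genes. The labels name no batch for these numbers, and the cause of the spread was not tested. Values for libraries 2 and 3 only, a setting of 2 libraries per group that was chosen after the data were seen, are set beside those for all libraries. This setting leaves out the library number in which these same genes stood apart. Its calls and p-values therefore give no independent support for a change.

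**Figure D3:**
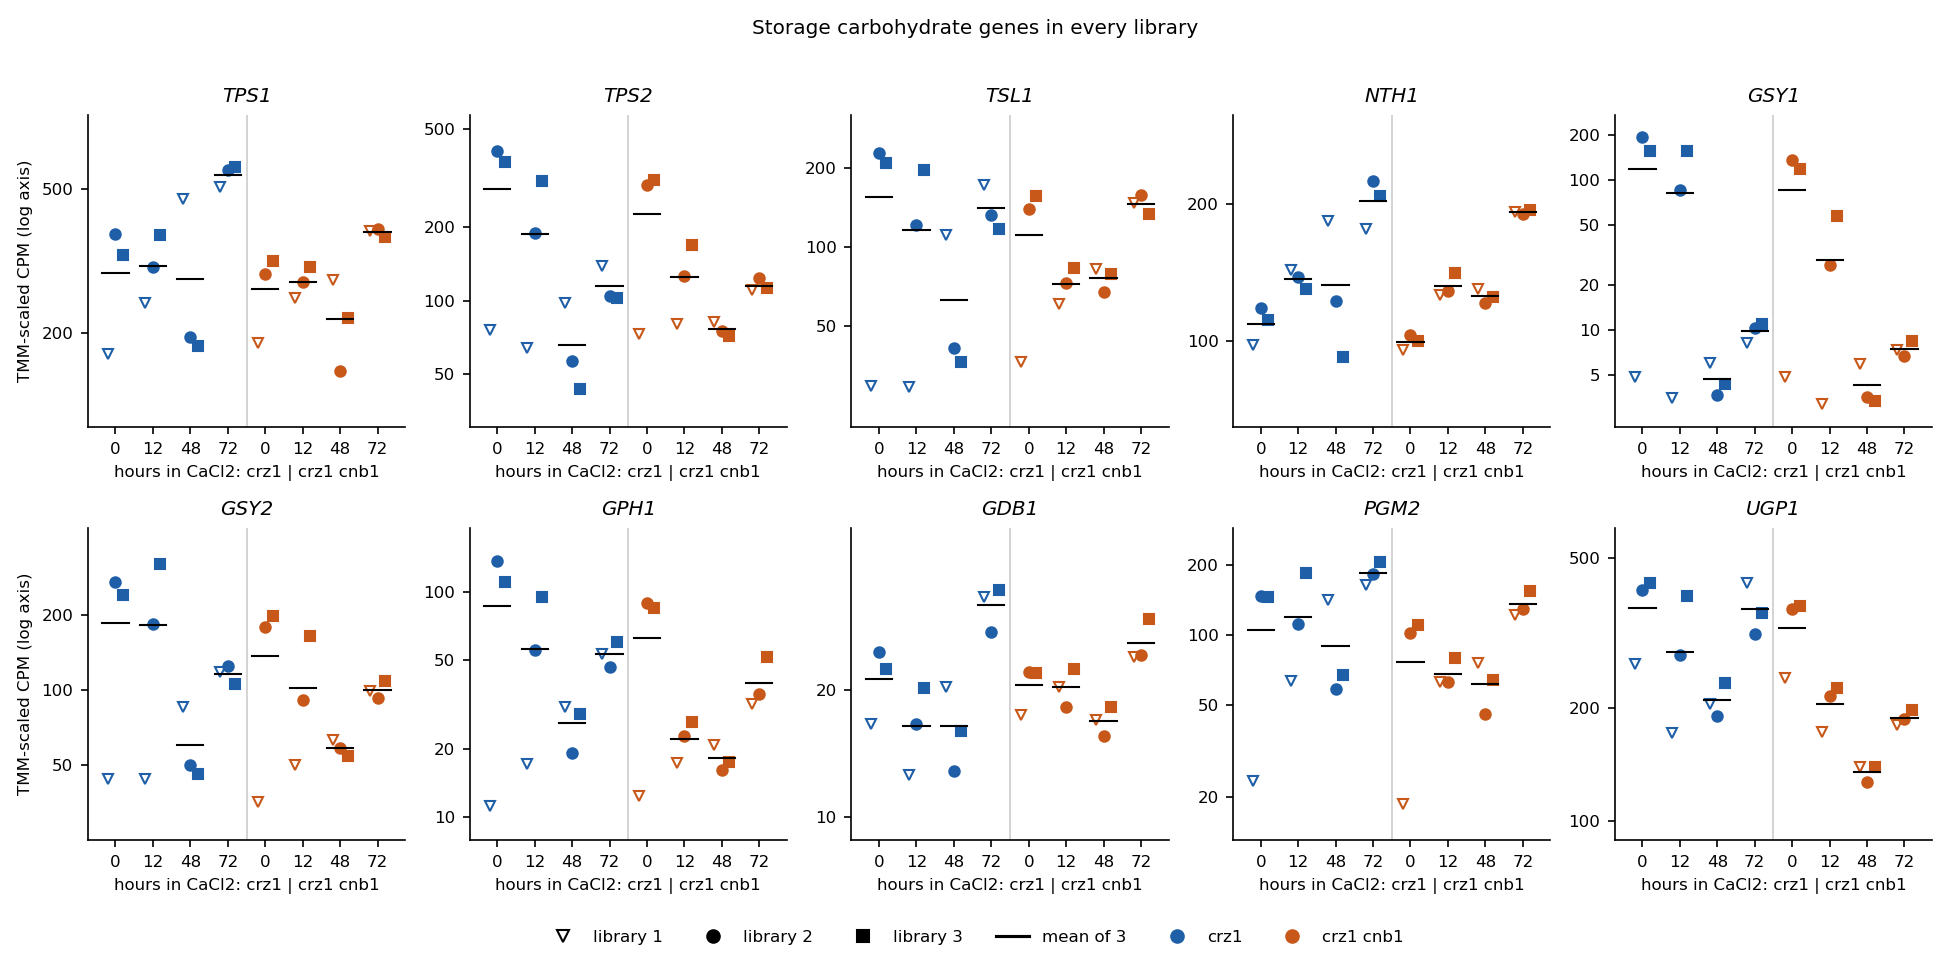
TMM-scaled CPM (log axis) of each gene in all 24 libraries, grouped by hours in CaCl2, with crz1 in blue, crz1 cnb1 in orange, symbols for the library number and a black line at the mean of 3. Open triangles (library 1) sit far below the other symbols at 0 h for GSY1, GPH1, TSL1, PGM2, GSY2 and TPS2, whereas at 72 h the 3 symbols lie close together.

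In crz1, none of the 10 genes passed the test at 12 h, 3 fell at 48 h (13.7% of all genes fell), and at 72 h 3 rose (22.6%) and 1 fell (19.8%; edgeR quasi-likelihood test, Benjamini-Hochberg adjusted p below 0.05 over 6089 genes). Of all genes, 32% were called in either direction at 12 h, 33.5% at 48 h and 42.3% at 72 h, so that 0, 3 and 4 of 10 are near or below those shares. At an unadjusted p below 0.05 none of them passed at 12 h either, while 42.3% of all genes did. This fit did not use the library numbers, which paired the 12 and 0 h libraries of crz1 by the rule given under processing. With the replicate block, over all libraries or within strain, none of the 10 was called at 12 h in crz1. That block takes the shift of a library number to be the same at every time. In crz1 cnb1, 1 fell at 12 h (7.67% of all genes fell and 20.5% were called), 2 fell at 48 h (9.54% and 23.9%), and at 72 h 1 rose and 2 fell (20.1% rose, 15.7% fell and 35.7% were called). The median log2 change of the 10 genes at 12, 48 and 72 h was -0.37, -1.06 and -0.08 in crz1 and -0.53, -0.88 and -0.06 in crz1 cnb1, and the median of all genes was within -0.03 and 0.07. Both strains thus had their lowest median at 48 h. 

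With libraries 2 and 3 only, a setting picked after these same genes were seen to stand apart in library 1, many more passed. In crz1, 3 fell at 12 h (18.2% of all genes), 9 fell at 48 h (23.3%), and 5 fell and 2 rose at 72 h (25.8% for each direction). In crz1 cnb1, 6 fell (14.7%) and 1 rose (18.2%) at 12 h, 8 fell at 48 h (14.7%), and 5 fell (23.2%) and 1 rose (24.4%) at 72 h. Leaving out only the untreated libraries numbered 1, also chosen after the data were seen, gave 3, 7 and 4 called genes at 12, 48 and 72 h in crz1, beside 31.5%, 34.6% and 41.9% of all genes. In crz1 cnb1 it gave 3, 5 and 5, beside 24.7%, 27% and 38.8%. In all libraries, the number called at 48 h in crz1 was 7 without untreated library 1, 5 without 48 h library 1 and 1 without untreated library 2 or 48 h library 2. In crz1 at 72 h it was 2 without 72 h library 2 and 1 without 72 h library 3.

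The balance of higher and lower calls over all genes depended on the scaling. On log2(TPM + 1), limma called 541 genes higher and 1307 lower at 12 h in crz1 (1072 and 878 in the TMM-scaled counts), 389 and 1810 at 48 h (1206 and 835) and 890 and 1352 at 72 h (1375 and 1203). In crz1 cnb1 the TPM split was 345 and 574 at 12 h (784 and 467). It was 52 and 21 between 12 and 72 h in crz1 (69 and 46) and 161 and 62 in crz1 cnb1 (128 and 142). Between strains it was 48 and 480 at 48 h (186 and 126) and 77 and 234 at 72 h (171 and 204), and in the interactions 0 and 1 at 12 h (1 and 2) and 5 and 70 at 48 h (7 and 19). The median of all genes moved to -0.25 at 48 h in crz1, to -0.26 between strains and to -0.29 in the interaction at that time. No call on the 10 genes changed sign with the scaling.

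**Figure D4:**
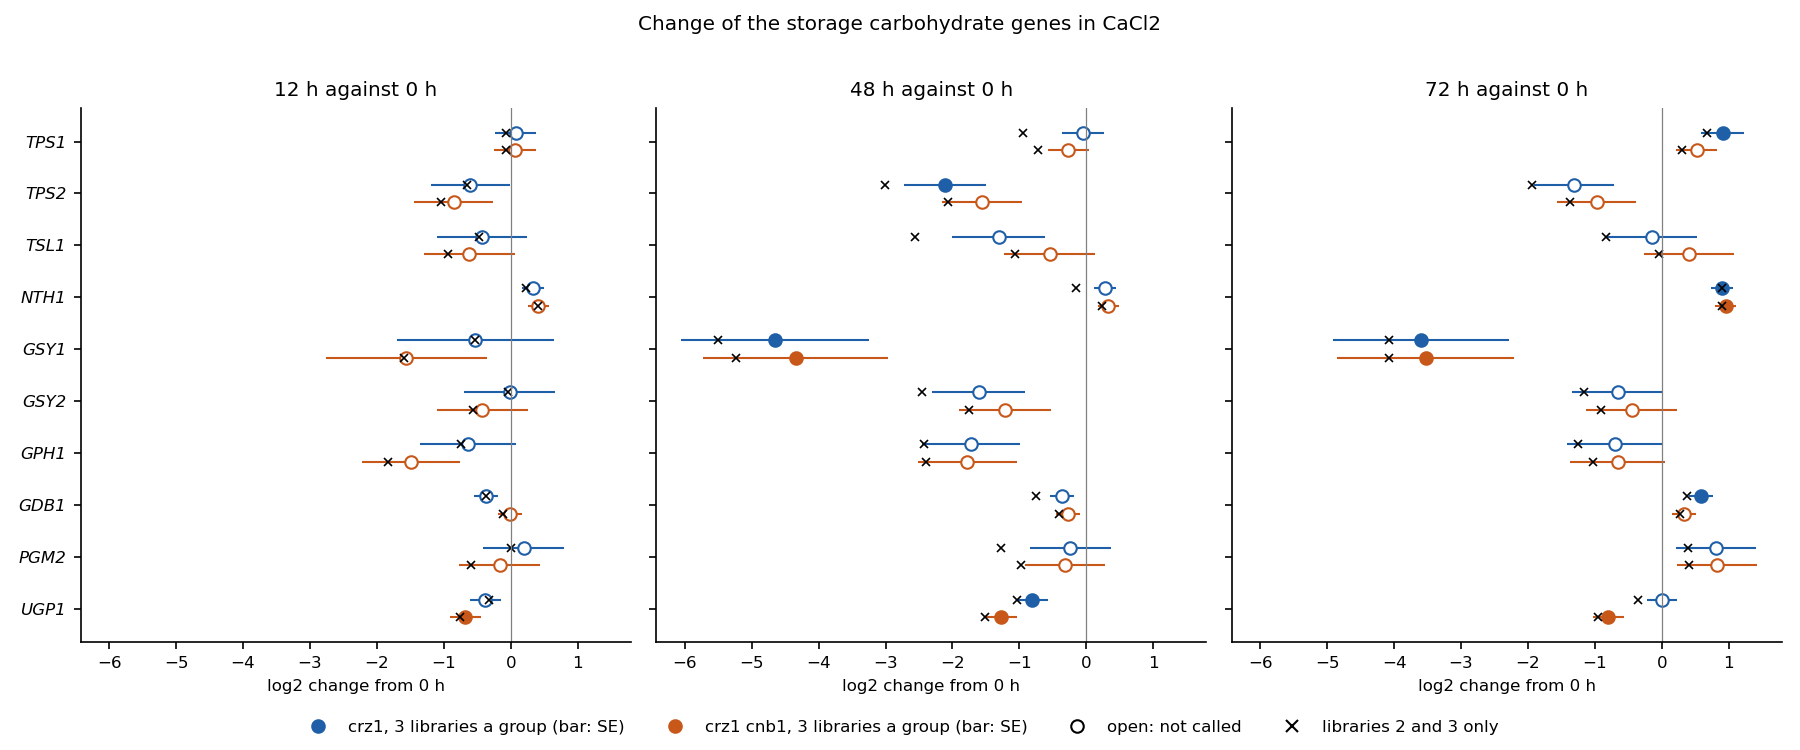
Log2 change from 0 h (x axis) of each gene at 12, 48 and 72 h in crz1 (blue) and crz1 cnb1 (orange). Circles show the fit to 3 libraries per group with SE bars, filled where the adjusted p is below 0.05, and crosses show the fit to libraries 2 and 3 only. At 48 h the crosses of all genes except NTH1 lie left of 0 in both strains, and the cross of NTH1 in crz1 is at -0.15. At 72 h NTH1 lies right of 0 in both.

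Among the trehalose synthesis genes in crz1, TPS1 rose at 72 h and TPS2 fell at 48 h. TPS1 (YBR126C, chromosome II, 488905 to 490392, minus strand), which encodes trehalose-6-phosphate synthase, had 174, 375 and 328 CPM untreated, 241, 305 and 373 CPM at 12 h, 469, 194 and 184 CPM at 48 h and 507, 566 and 575 CPM at 72 h in libraries 1, 2 and 3 of crz1. All 72 h libraries were above all untreated ones, and TPS1 rose 1.88-fold (log2 change 0.91 ± 0.32 SE, n = 3, edgeR adjusted p = 0.0253). The call was lost without untreated library 1 (0.64, adjusted p = 0.113) or without 72 h library 2 (adjusted p = 0.0533) or 3 (0.0764), and on log2(TPM + 1) it had an adjusted p = 0.0559 by limma. With libraries 2 and 3 only, TPS1 fell at 48 h (-0.95 ± 0.15, adjusted p = 9.58e-05) and rose at 72 h (0.67 ± 0.15, adjusted p = 0.00148), and in crz1 cnb1 it fell at 48 h (-0.72 ± 0.15, adjusted p = 0.00167). In all libraries of crz1 cnb1, TPS1 had 187, 291 and 317 CPM untreated, 249, 276 and 304 at 12 h, 280, 156 and 220 at 48 h and 382, 388 and 369 CPM at 72 h. The 72 h libraries again did not overlap the untreated ones, but the change of 0.52 ± 0.31 was not called (adjusted p = 0.202).

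TPS2 (YDR074W, chromosome IV, 593893 to 596583, plus strand), which encodes the phosphatase that releases trehalose, was far from steady in untreated cells. In crz1 it had 75.7, 408 and 368 CPM untreated, 63.8, 189 and 308 CPM at 12 h, 97.5, 56.7 and 43.5 CPM at 48 h and 138, 104 and 102 CPM at 72 h. The 48 h libraries lay below untreated libraries 2 and 3 and on both sides of library 1. TPS2 fell 4.3-fold at 48 h (-2.11 ± 0.61, n = 3, edgeR adjusted p = 0.0137), a call lost without untreated library 2 (adjusted p = 0.0622), without 48 h library 2 (0.0504) or 3 (0.0635), and with only the libraries compared (0.065). At 72 h it was at -1.31 ± 0.60 (adjusted p = 0.0857), and without untreated library 1 it fell by 1.76 (adjusted p = 0.0165). In crz1 cnb1, TPS2 had 73.1, 295 and 309 CPM untreated, 80.4, 126 and 168 at 12 h, 81.8, 75.2 and 71.9 at 48 h and 110, 123 and 112 CPM at 72 h, and no change was called (-1.56 ± 0.60 at 48 h, adjusted p = 0.0684). That 48 h value was called without untreated library 1 (-1.98, adjusted p = 0.02). TPS2 fitted to libraries 2 and 3 only fell at all 3 times in both strains, by 0.66, 3.01 and 1.94 in crz1 and by 1.05, 2.07 and 1.38 in crz1 cnb1 on the log2 scale.

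TSL1 (YML100W, chromosome XIII, 70624 to 73920, plus strand), the regulatory subunit gene, had 29.4, 229 and 209 CPM untreated, 29.2, 121 and 197 at 12 h, 111, 41.1 and 36.4 at 48 h and 172, 133 and 117 CPM at 72 h in crz1. The crz1 cnb1 libraries had 36.2, 140 and 157 CPM untreated, 60.7, 72.8 and 83.1 at 12 h, 82.1, 67.5 and 78.6 at 48 h and 148, 158 and 134 CPM at 72 h. In crz1 the untreated libraries spanned all those at 48 and 72 h, and no change of TSL1 from 0 h was called in either strain (-1.31 ± 0.69 at 48 h in crz1, adjusted p = 0.151). At 48 h in crz1, TSL1 was called without untreated library 1 (-1.80, adjusted p = 0.0328) and without 48 h library 1 (-2.01, adjusted p = 0.0499). Fitted to libraries 2 and 3 only, TSL1 fell in crz1 at 12 h (-0.48 ± 0.18), 48 h (-2.56 ± 0.19) and 72 h (-0.84 ± 0.18). TSL1 in crz1 cnb1 fell at 12 h (-0.94 ± 0.18) and 48 h (-1.06 ± 0.18) and was at -0.04 ± 0.18 at 72 h.

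The trehalase gene NTH1 (YDR001C, chromosome IV, 450220 to 452475, minus strand) rose at 72 h in both strains. NTH1 in crz1 had 98, 118 and 111 CPM untreated, 143, 138 and 130 CPM at 12 h, 184, 122 and 92 CPM at 48 h and 176, 225 and 208 CPM at 72 h. In crz1 cnb1 the values were 95.2, 103 and 100 CPM untreated, 126, 129 and 141 at 12 h, 130, 121 and 125 at 48 h and 192, 190 and 194 CPM at 72 h. Every treated library of crz1 cnb1 was above every untreated one, and so were all crz1 libraries at 12 and 72 h. The rise at 72 h was 0.90 ± 0.16 in crz1 (1.86-fold, n = 3, edgeR adjusted p = 0.000163) and 0.95 ± 0.16 in crz1 cnb1 (1.93-fold, n = 3, edgeR adjusted p = 0.00013). Both calls held in every alternative fit, and with libraries 2 and 3 only the values were 0.89 ± 0.12 and 0.90 ± 0.12. The 12 h values of 0.33 ± 0.16 and 0.41 ± 0.16 were not called (adjusted p = 0.119 and 0.0751), and the latter was called with only the libraries compared (adjusted p = 0.0249) and with libraries 2 and 3 only (0.40, adjusted p = 0.0186). At 48 h NTH1 was at 0.28 ± 0.16 in crz1 (adjusted p = 0.179) and was called there without 48 h library 3 (0.46, adjusted p = 0.0258). With libraries 2 and 3 only it had the other sign and was not called (-0.15 ± 0.12, edgeR adjusted p = 0.305).

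Among the glycogen genes, the synthase gene GSY1 (YFR015C, chromosome VI, 174265 to 176391, minus strand) had the widest range. In crz1 it had 4.86, 196 and 156 CPM untreated, 3.51, 86.6 and 157 CPM at 12 h, 6.06, 3.69 and 4.39 CPM at 48 h and 8.17, 10.3 and 11 CPM at 72 h. In crz1 cnb1 it had 4.87, 136 and 119 CPM untreated, 3.2, 27 and 58.1 at 12 h, 5.94, 3.56 and 3.33 at 48 h and 7.32, 6.74 and 8.47 CPM at 72 h. Every 48 and 72 h library was thus low, and so was library 1 at 0 and 12 h. GSY1 fell at 48 h by 4.65 ± 1.4 in crz1 (25.1-fold, n = 3, edgeR adjusted p = 0.0169) and by 4.34 ± 1.38 in crz1 cnb1 (20.2-fold, n = 3, edgeR adjusted p = 0.0312). It also fell at 72 h, by 3.60 ± 1.31 (adjusted p = 0.0361) and by 3.53 ± 1.32 (adjusted p = 0.0461). These falls rest on untreated libraries 2 and 3: within the libraries numbered 1, the level was 4.86, 6.06 and 8.17 CPM at 0, 48 and 72 h in crz1 and 4.87, 5.94 and 7.32 CPM in crz1 cnb1. Fitted to libraries 2 and 3 only, the changes of GSY1 at 48 and 72 h were -5.50 ± 0.41 and -4.07 ± 0.37 in crz1 and -5.24 ± 0.40 and -4.08 ± 0.37 in crz1 cnb1, all called, as was -1.59 ± 0.33 at 12 h in crz1 cnb1 (-1.56 and not called in all libraries).

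The GSY1 calls were lost when single libraries were left out and in several other fits. At 48 h in crz1 the call was lost without untreated library 2 (adjusted p = 0.0523), without 48 h library 2 (0.0582) or 3 (0.0602), and with the replicate number as a block within strain (-3.78, adjusted p = 0.0558). At 72 h in crz1 it was lost without untreated library 2 or 3 or without any 1 of the 72 h libraries (adjusted p = 0.076 to 0.1), and with the replicate block over all libraries (-3.02, adjusted p = 0.0524) or within strain (-2.92, adjusted p = 0.0924). The crz1 cnb1 calls were lost without untreated library 2 or 3 or without any 1 of the treated libraries, at 48 h (adjusted p = 0.0775 to 0.1) and at 72 h (0.106 to 0.119). The blocked values there were -3.69 at 48 h (within strain, adjusted p = 0.067) and at 72 h -2.90 (over all libraries, adjusted p = 0.0699) and -3.0 (within strain, adjusted p = 0.0899). By limma on log2(TPM + 1), GSY1 was at -2.38 at 72 h in crz1 (adjusted p = 0.134) and at -2.88 and -2.25 at 48 and 72 h in crz1 cnb1 (adjusted p = 0.115 and 0.177). On log2(TPM + 0.1) these values were -2.51, -3.33 and -2.43 (limma adjusted p = 0.17, 0.117 and 0.208), so the calls were lost there too. The 72 h calls were also lost with only the libraries compared (adjusted p = 0.0812 in crz1 and 0.0559 in crz1 cnb1), and the one in crz1 cnb1 with no filter on low counts (0.056).

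GSY2 (YLR258W, chromosome XII, 660716 to 662833, plus strand), the major glycogen synthase isoform, shares no run of 50 bases with GSY1. The crz1 libraries had 43.9, 270 and 240 CPM untreated, 44.1, 183 and 318 at 12 h, 85.5, 50.1 and 46 at 48 h and 118, 125 and 106 CPM at 72 h. The crz1 cnb1 libraries had 35.8, 178 and 197 CPM untreated, 50.1, 91 and 164 at 12 h, 63.1, 58.6 and 54.5 at 48 h and 99.5, 92.8 and 109 CPM at 72 h. The treated libraries at 48 and 72 h fell between untreated library 1 and the other untreated libraries, and no change was called (48 h: -1.61 ± 0.69, edgeR adjusted p = 0.0841 in crz1, and -1.22 ± 0.69, adjusted p = 0.212 in crz1 cnb1). The 48 h value in crz1 was called without untreated library 1 (-2.07, adjusted p = 0.0224) and by DESeq2 (adjusted p = 0.0448). GSY2 fitted to libraries 2 and 3 only fell at 48 and 72 h in crz1 (-2.46 ± 0.27 and -1.17 ± 0.26) and in crz1 cnb1 (-1.76 ± 0.26 and -0.91 ± 0.26).

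Of the breakdown genes, GPH1 (YPR160W, chromosome XVI, 861306 to 864014, plus strand), glycogen phosphorylase, varied between untreated libraries as the synthase genes did. In crz1 it had 11.2, 138 and 111 CPM untreated, 17.1, 55.1 and 94.7 at 12 h, 30.9, 19.3 and 28.5 at 48 h and 53.2, 46.3 and 60.1 CPM at 72 h. In crz1 cnb1 it had 12.3, 89.6 and 85.3 CPM untreated, 17.3, 22.9 and 26.3 at 12 h, 20.8, 16.2 and 17.5 at 48 h and 31.8, 35.1 and 51.4 CPM at 72 h. Untreated library 1 was below every treated library and the other untreated libraries were above all treated ones, at each time and in both strains. No change was called (at 48 h -1.72 ± 0.73, edgeR adjusted p = 0.0796 in crz1, and -1.78 ± 0.74, adjusted p = 0.0884 in crz1 cnb1). Without untreated library 1, GPH1 fell at 48 h in crz1 (-2.24, adjusted p = 0.0106) and in crz1 cnb1 at 12 h (-1.98, adjusted p = 0.048) and 48 h (-2.26, adjusted p = 0.0249), and DESeq2 called it at 48 h in both strains (adjusted p = 0.0401 and 0.0436). Fitted to libraries 2 and 3 only, GPH1 fell at all 3 times in both strains, between -0.75 ± 0.25 at 12 h and -2.43 ± 0.27 at 48 h in crz1.

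GDB1 (YPR184W, chromosome XVI, 902044 to 906654, plus strand), the debranching enzyme, varied less between untreated libraries. GDB1 in crz1 had 16.6, 24.6 and 22.4 CPM untreated, 12.6, 16.6 and 20.2 at 12 h, 20.4, 12.9 and 16 at 48 h and 33.3, 27.4 and 34.6 CPM at 72 h. The crz1 cnb1 libraries had 17.5, 22.1 and 22 CPM untreated, 20.3, 18.2 and 22.4 at 12 h, 17, 15.6 and 18.2 at 48 h and 24, 24.2 and 29.4 CPM at 72 h. At 72 h all libraries were above the untreated ones in both strains, and GDB1 rose in crz1 (0.58 ± 0.18, 1.5-fold, n = 3, edgeR adjusted p = 0.013). That call was lost without untreated library 1 (0.43, adjusted p = 0.0714), without 72 h library 3 (0.51, adjusted p = 0.0686) and with libraries 2 and 3 only (0.37, adjusted p = 0.0681). By limma it was lost on log2(TPM + 1) (0.42, adjusted p = 0.0617) and on log2(TPM + 0.1) (0.50, adjusted p = 0.0881). The value in crz1 cnb1 was 0.33 ± 0.18 (adjusted p = 0.152). In crz1 without untreated library 1, GDB1 fell at 12 h (-0.51, adjusted p = 0.043) and at 48 h (-0.51, adjusted p = 0.0392), and at 48 h it was also called without 48 h library 1 (-0.55, adjusted p = 0.023) and with libraries 2 and 3 only (-0.76, adjusted p = 0.00167), against -0.37 in all libraries (adjusted p = 0.125).

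The genes that supply the precursor differed from each other. PGM2 (YMR105C, chromosome XIII, 475897 to 477606, minus strand), the major phosphoglucomutase, had 23.4, 147 and 146 CPM untreated, 63.6, 112 and 185 at 12 h, 142, 58.8 and 67.4 at 48 h and 165, 184 and 207 CPM at 72 h in crz1. Its crz1 cnb1 values were 18.6, 102 and 110 CPM untreated, 62.5, 62.5 and 79.3 at 12 h, 75.7, 45.5 and 64 at 48 h and 122, 130 and 155 CPM at 72 h. At 72 h every library exceeded every untreated one in both strains, yet the changes of 0.81 ± 0.60 and 0.82 ± 0.60 were not called (n = 3, edgeR adjusted p = 0.289 and 0.302). PGM2 fitted to libraries 2 and 3 only fell at 48 h in both strains (-1.27 ± 0.21 and -0.98 ± 0.21) and in crz1 cnb1 at 12 h (-0.59 ± 0.21, adjusted p = 0.0455), and at 72 h it was at 0.39 ± 0.21 and 0.41 ± 0.21.

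UGP1 (YKL035W, chromosome XI, 369891 to 371390, plus strand), UDP-glucose pyrophosphorylase, also feeds cell wall glucan and is essential for growth. In crz1 it had 261, 411 and 427 CPM untreated, 171, 276 and 395 CPM at 12 h, 205, 190 and 232 CPM at 48 h and 428, 313 and 357 CPM at 72 h. In crz1 cnb1 it had 240, 366 and 372 CPM untreated, 172, 214 and 226 CPM at 12 h, 139, 127 and 139 CPM at 48 h and 180, 187 and 197 CPM at 72 h. All treated libraries of crz1 cnb1 were below all untreated ones, and in crz1 only those at 48 h were. In crz1 cnb1, UGP1 fell at 12 h (-0.68 ± 0.23, n = 3, edgeR adjusted p = 0.0412), at 48 h (-1.27 ± 0.23, 2.42-fold, adjusted p = 0.000484) and at 72 h (-0.80 ± 0.23, adjusted p = 0.0105). In crz1 it fell at 48 h (-0.81 ± 0.23, 1.75-fold, adjusted p = 0.01), and its level at 72 h was 366 ± 57.9 CPM against 366 ± 91.3 CPM untreated (mean ± SD, n = 3). The 48 h call in crz1 cnb1 held in every alternative fit. The 12 h call there was lost without untreated library 2 or 3 or any 1 of the 12 h libraries (adjusted p = 0.0525 to 0.16), the 72 h call without untreated library 3 (adjusted p = 0.0539), and the 48 h call in crz1 without untreated library 3 (-0.69, adjusted p = 0.0532). At 12 h in crz1, at -0.38 ± 0.23 (adjusted p = 0.211), UGP1 was called without 12 h library 3 (-0.72, adjusted p = 0.0237) and on log2(TPM + 1) (-0.59, adjusted p = 0.0396), where the median of all genes was -0.16.

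The comparisons with untreated cells without overlap between libraries can be read against all genes. At 72 h TPS1, NTH1, GDB1 and PGM2 were higher without overlap in both strains, 4 of 10 against 28.9% of all genes in crz1 and 31.5% in crz1 cnb1. UGP1 alone was lower without overlap at 72 h in crz1 cnb1, against 27.8% of all genes. NTH1 was the 1 gene higher without overlap at 12 h in crz1 (22.9% of all genes) and in crz1 cnb1 at 12 h (21.1%) and 48 h (26.5%). UGP1 was the 1 gene lower without overlap at 48 h in crz1 (14.5%) and in crz1 cnb1 at 12 h (18.4%) and 48 h (19%). These shares are near those of all genes.

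Between 12 and 72 h, where the untreated libraries enter only the estimate of the spread, 1 of the 10 genes rose in crz1 (1.13% of all genes rose and 1.89% were called) and none passed the test in crz1 cnb1 (4.43% were called). The riser was GDB1 (0.95 ± 0.18, 1.93-fold, n = 3, edgeR adjusted p = 0.00841), whose call was lost without 12 h library 2 (adjusted p = 0.061) or 72 h library 3 (0.078) and with only the libraries compared (0.0517). NTH1 was at 0.57 ± 0.16 in crz1 (adjusted p = 0.0671) and 0.54 ± 0.16 in crz1 cnb1 (adjusted p = 0.0555), and both were called by DESeq2 (adjusted p = 0.0345 and 0.0333) and with the replicate block over all libraries (adjusted p = 0.047 and 0.0441). Without overlap, TPS1, NTH1 and GDB1 were higher at 72 h in crz1 (11.6% of all genes), and TPS1, TSL1, NTH1, GPH1, GDB1 and PGM2 in crz1 cnb1 (19.4%). In crz1 cnb1, NTH1, PGM2, TSL1 and TPS1 passed in a fit to the 12 and 72 h libraries alone (0.53, 0.98, 1.01 and 0.45, adjusted p = 0.0272, 0.0183, 0.0144 and 0.0488). At an unadjusted p below 0.05, NTH1 was the 1 gene of the 10 that passed in crz1 cnb1 in the fit to all libraries, beside 1317 of the 6089 genes tested. In crz1, GDB1, NTH1 and TPS1 (higher at 72 h) and GSY1 (lower, -3.07 ± 1.29) passed at that threshold, beside 962 of the 6089 genes. Fitted to libraries 2 and 3 only, TPS1, NTH1 and GDB1 rose (8.12% of all genes) and TPS2, GSY1 and GSY2 fell (9.84%) in crz1, while TSL1, PGM2 and NTH1 rose (8.06%) and GSY1 fell (9.87%) in crz1 cnb1.

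The strains were compared directly at each time to ask what the loss of Cnb1 adds to that of Crz1. Untreated, none of the 10 genes differed (0.0164% of all genes called), nor did any pass an unadjusted p below 0.05 (1.63% of all genes), and the differences, crz1 minus crz1 cnb1, ranged from 0.05 ± 0.18 for GDB1 to 0.49 ± 0.67 for TSL1. At 12 h (3.73% of all genes) and 48 h (5.12%) none was called either, and at an unadjusted p below 0.05 UGP1 at 48 h was the 1 that passed, beside 18.8% and 23.5% of all genes. The library numbers pair the strains at 0 and 12 h. Within the untreated pairs TPS2, NTH1, GSY2, PGM2 and UGP1 were higher in crz1 in all 3, 5 of 10 against 20.7% of all genes, and none was lower in all 3. With the replicate block over all libraries none of the 10 was called at 0 h, and with the replicate block over all libraries 457 genes in place of 227 were called at 12 h, with none of the 10 among them. At 72 h, 1 of 10 was called (6.16% of all genes, with 2.81% higher in crz1): UGP1 was 1.95-fold higher in crz1 (0.96 ± 0.23, n = 3, edgeR adjusted p = 0.0148), with 313 to 428 CPM against 180 to 197 CPM. The call was lost without 72 h library 1 (0.83, adjusted p = 0.091) or 3 (adjusted p = 0.0507) of crz1 and without 72 h library 1 (0.0761) or 2 (0.0685) of crz1 cnb1. It held with libraries 2 and 3 only (0.81 ± 0.15, adjusted p = 0.00636).

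UGP1 also lay higher in crz1 at 12 h (0.46 ± 0.23, edgeR adjusted p = 0.283) and at 48 h (0.63 ± 0.23, adjusted p = 0.101), where the libraries did not overlap (9.87% of all genes). It was called at 48 h with the replicate block over all libraries (0.62, adjusted p = 0.0447) and at 12 h without crz1 12 h library 1 (0.72, adjusted p = 0.0404). At 72 h TPS1 (507 to 575 CPM in crz1, 369 to 388 CPM in crz1 cnb1) and PGM2 (165 to 207 and 122 to 155 CPM) were higher in crz1 without overlap as well, 3 of 10 genes with UGP1 against 18.2% of all genes. Their differences of 0.53 ± 0.31 and 0.45 ± 0.60 were not called (adjusted p = 0.343 and 0.706). They were called when only the 72 h libraries were fitted (0.54 and 0.46, adjusted p = 0.00541 and 0.0263).

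Whether the change from 0 h differed between the strains was tested as an interaction. None of the 10 genes was called at 12 h (0.0493% of all genes), 48 h (0.427%) or 72 h (0.591%), or in the joint test over the 3 times (0.361%). At 72 h UGP1 was the 1 gene of the 10 with an unadjusted p below 0.05, with a difference of 0.80 ± 0.32 (unadjusted p = 0.0228, edgeR adjusted p = 0.26), beside 13.9% of all genes. The standard errors of these differences ran from 0.22 for NTH1 to 1.78 for GSY1, so for GSY1 a difference of several fold was not detectable with this spread. For NTH1 the differences were -0.08 ± 0.23, -0.05 ± 0.23 and -0.05 ± 0.22 at 12, 48 and 72 h.

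With libraries 2 and 3 only, more differences between strains passed. None of the 10 genes differed at 0 h (0.0164% of all genes called), and at 12 h, 7 were higher in crz1 (10.8% of all genes): GPH1 by 1.62 ± 0.27, GSY1 by 1.53 ± 0.33, PGM2 by 1.08 ± 0.21, TSL1 by 1.04 ± 0.18, GSY2 by 0.99 ± 0.26, TPS2 by 0.77 ± 0.19 and UGP1 by 0.62 ± 0.15. In the corresponding interaction none was called (1.33% of all genes), GPH1 being nearest at 1.09 ± 0.36 (adjusted p = 0.161). At 48 h UGP1 was higher in crz1 by 0.66 ± 0.15 (15.5% of all genes), while TSL1 (-0.92 ± 0.18) and TPS2 (-0.56 ± 0.19) were lower in crz1 (13.1%). The interaction at 48 h was called for TSL1 (-1.5 ± 0.26, adjusted p = 0.00639) and TPS2 (-0.94 ± 0.27, adjusted p = 0.0367), a larger fall in crz1 (5.93% of all genes), and both were called in the joint test (5.96%). None was called in the interaction at 72 h (0.802%). At 72 h TPS1 (0.60 ± 0.15, adjusted p = 0.027) was higher in crz1 beside UGP1 (2.39% of all genes). These fits have 2 libraries per group. At 12 h, library 1 was lowest and library 3 highest in both strains for 8 of the 10 genes.

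Levels of different genes were compared per transcript length. In untreated crz1 the mean TPM was 203 ± 48.6 for UGP1, 164 ± 59.3 for TPS1, 87.7 ± 56.1 for TPS2 and 72.4 ± 48.3 for GSY2 (SD, n = 3). It was 51.2 ± 34.4 for PGM2, 46.4 ± 39.7 for GSY1, 40.3 ± 3.85 for NTH1, 39.3 ± 27.8 for TSL1, 26.6 ± 20.6 for GPH1 and 3.83 ± 0.747 for GDB1. Mean ± SD ranges of neighbours in this order overlapped except for GPH1 and GDB1. Those SDs leave out that all genes were measured in the same 3 libraries. Within single libraries, UGP1 (147 TPM in library 1, 229 and 233 in the others) was above TPS1 (98.5, then 178 and 214). TPS1 was in turn above TPS2 (23.7, then 110 and 129) in each library. GSY1 stood before NTH1 by mean, yet its 1.93 TPM in library 1 lay below every NTH1 library (36.7 to 44.3). The other neighbours were not compared library by library. In untreated crz1 cnb1 the means ran from 176 ± 34.7 TPM for UGP1 and 144 ± 32.4 for TPS1 through 67.3 ± 38.3 for TPS2, 51.8 ± 32.4 for GSY2, 36 ± 23.2 for PGM2, 35.9 ± 1.18 for NTH1, 32.5 ± 26.8 for GSY1, 27.1 ± 15.4 for TSL1 and 18.5 ± 12.7 for GPH1 to 3.62 ± 0.34 for GDB1. There the mean ± SD ranges of GPH1 and GDB1, and of TPS1 and TPS2, were apart, and those of the other neighbours overlapped. Single libraries of GPH1 and GDB1 were not apart: GPH1 started at 3.86 TPM and GDB1 reached 3.89 TPM. In untreated crz1, GPH1 started at 3.49 TPM and GDB1 reached 4.53 TPM. Within library 1, GPH1 was still above GDB1, which had 3.04 TPM in crz1 and 3.24 TPM in crz1 cnb1. At 72 h in crz1 TPS1 led with 292 ± 31.1 TPM, followed by UGP1 (192 ± 21.4), PGM2 (85.6 ± 11.8), NTH1 (71.3 ± 11.9) and GSY2 (43.5 ± 4.86). TPS2 and TSL1 had 33.5 ± 4.48 and 33.5 ± 5.72 TPM, GPH1 had 15.5 ± 1.79, GDB1 5.42 ± 0.503 and GSY1 was last with 3.66 ± 0.668 TPM. GSY1 was also below GDB1 in untreated library 1, with 1.93 against 3.04 TPM in crz1 and 1.95 against 3.24 TPM in crz1 cnb1. At 72 h the SD ranges overlapped for PGM2 with NTH1 and for TSL1 with TPS2 and GSY2, and were apart for the other neighbours. In crz1 cnb1 at 72 h the order was TPS1 (219 ± 15), UGP1 (107 ± 1.79), NTH1 (72.9 ± 2.62), PGM2 (67.8 ± 5.54), GSY2 (40.6 ± 1.90), TSL1 (38.3 ± 4.57), TPS2 (36.6 ± 3.18), GPH1 (12.4 ± 2.70), GDB1 (4.80 ± 0.348) and GSY1 (3.02 ± 0.232 TPM). There the ranges overlapped for NTH1 with PGM2 and for TSL1 with GSY2 and TPS2.

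How far the genes varied together was described by Pearson's r of log2 CPM over the 24 libraries, which share groups and library numbers, so no p is given. GSY2, GPH1, TPS2 and TSL1 followed the mean of the 10 genes, which includes the gene itself, most closely (r = 0.98, 0.96, 0.92 and 0.91), then GSY1 (0.87), PGM2 (0.81), UGP1 (0.77), TPS1 (0.72), GDB1 (0.64) and NTH1 (0.24). Among pairs r was highest for TPS2 and GSY1 (0.95) and lowest for NTH1 and GSY1 (-0.20). The deviations of libraries from their own group means, which leave out time and strain, were also correlated, with r = 0.98 for TPS2 and TSL1, TPS2 and GSY2, and GSY1 and GSY2, against -0.06 for NTH1 and UGP1.

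**Figure D5:**
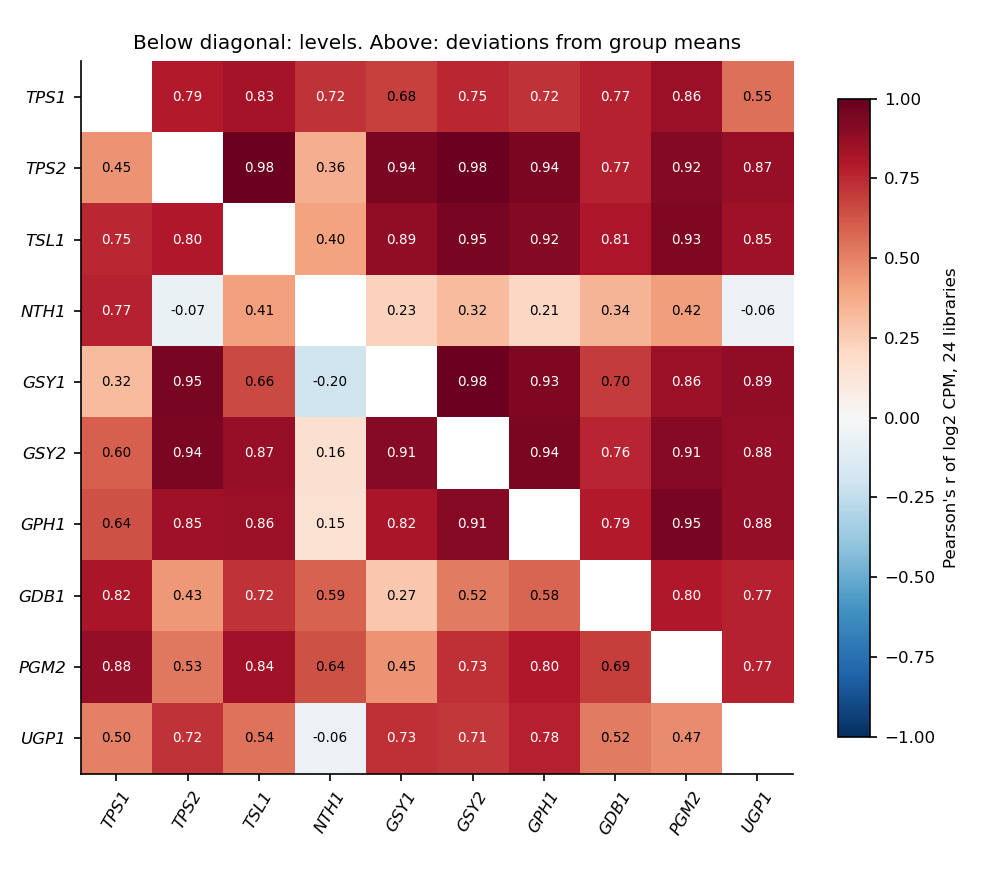
Pearson's r of log2 CPM over 24 libraries between each pair of the 10 genes, with levels below the diagonal and deviations from group means above it. Red is positive and blue negative. TPS2, TSL1, GSY1, GSY2 and GPH1 form a red block above the diagonal, with r = 0.89 to 0.98, and NTH1 is pale with most genes and redder with TPS1 (0.77 for levels, 0.72 for deviations).

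Outside the set, the named genes with the highest correlation to the mean of the 10 genes and at least 10 CPM in a group were EMI2 (r = 0.92), CIT1 (0.92), OM45 (0.91), PIC2 (0.90), FAA1 (0.89), LSP1 (0.89), YAK1 (0.88) and ALD4 (0.88). EMI2 encodes a hexokinase-like protein, CIT1 mitochondrial citrate synthase, OM45 a mitochondrial outer membrane protein and ALD4 mitochondrial aldehyde dehydrogenase. PIC2 encodes a mitochondrial carrier, FAA1 an acyl-CoA synthetase, LSP1 an eisosome component and YAK1 a protein kinase.

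Other genes of the pathway and its regulation were counted as lists, to be read against all genes. In crz1, 17.6% of all genes rose and 14.4% fell at 12 h, and 19.8% rose at 48 h. In crz1 cnb1, 12.9% rose at 12 h and 14.3% at 48 h, and the other shares are those given above for the 10 genes. Of all genes, 20.7% and 26.9% rose with libraries 2 and 3 only at 12 and 48 h in crz1 and 18.5% at 48 h in crz1 cnb1.

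Of 19 further trehalose and glycogen genes, 1 rose and 4 fell in crz1 at 12 h, 1 rose and 6 fell at 48 h, and 1 rose and 7 fell at 72 h. In crz1 cnb1 the counts were 0 and 3, 1 and 2, and 1 and 2. Without untreated library 1, those that fell at 48 h in crz1 numbered 12, and those that fell in crz1 cnb1 6 at 48 h and 7 at 72 h. With any other 1 library left out, they numbered 4 to 7, 1 to 2 and 1 to 2. The gene that rose was PHO85, the kinase whose complex with Pcl8 or Pcl10 phosphorylates glycogen synthase, at 0.62 ± 0.12 in crz1 and 0.64 ± 0.12 in crz1 cnb1 at 72 h (edgeR adjusted p = 0.000318 and 0.000348). Its cyclin gene PCL8 fell at 72 h by 0.99 ± 0.21 and by 1.05 ± 0.21 (adjusted p = 0.000959 and 0.000788). GLC8, which encodes a regulator of the phosphatase Glc7 that activates glycogen synthase, fell in crz1 by 0.60 ± 0.13 (adjusted p = 0.00119) and was at -0.13 ± 0.13 in crz1 cnb1 (adjusted p = 0.467). PIG2, a putative subunit of the same phosphatase, fell in crz1 by 1.23 ± 0.28 (adjusted p = 0.00141). These 72 h calls held in every alternative fit, whereas the fall of PIG2 in crz1 cnb1 (-0.82 ± 0.28, adjusted p = 0.0259) was lost in 7 of 16. None of the 19 genes was called between the strains at 72 h (6.16% of all genes) or in the interaction at that time (0.591%). A call in 1 strain only is thus not a difference between strains here.

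GLG1, which encodes glycogenin, the primer of glycogen, fell in crz1 at 48 h (-1.84 ± 0.58, edgeR adjusted p = 0.0217) and 72 h (-1.55 ± 0.58, adjusted p = 0.0381). The 48 h call was lost without untreated library 2 or 3 or 48 h library 1 or 2 (adjusted p = 0.0616 to 0.0993), and the 72 h call without untreated library 2 or 3 or any 1 of the 72 h libraries (0.0702 to 0.149). The branching enzyme gene GLC3 was at -3.21 ± 1.24 at 48 h in crz1 (adjusted p = 0.0553) and -3.08 ± 1.25 in crz1 cnb1 (adjusted p = 0.083). The other trehalases did not pass at any time, for example NTH2 at 0.07 ± 0.18 and ATH1 at 0.06 ± 0.21 at 72 h in crz1 (adjusted p = 0.776 and 0.816). In the fit to libraries 2 and 3 only, 8, 14 and 12 of the 19 fell at 12, 48 and 72 h in crz1 (18.2%, 23.3% and 25.8% of all genes) and 1, 0 and 1 rose. In crz1 cnb1, 10, 9 and 9 fell (14.7%, 14.7% and 23.2% of all genes) and 0, 2 and 3 rose.

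Hexose phosphorylation genes, which provide glucose 6-phosphate, were called in crz1 for 1 higher and 2 lower of 7 at 12 h, 0 and 5 at 48 h and 1 and 1 at 72 h. In crz1 cnb1 the counts were 0 and 0, 0 and 3, and 1 and 2. With 1 library left out, those that fell in crz1 ranged from 0 to 1 at 12 h, 3 to 6 at 48 h and 0 to 3 at 72 h, and in crz1 cnb1 from 2 to 3 at 48 h and 0 to 2 at 72 h. Fitted to libraries 2 and 3 only, the counts were 1 and 3, 0 and 6, and 1 and 4 in crz1 and 1 and 1, 0 and 6, and 1 and 4 in crz1 cnb1. The glucokinase gene GLK1 rose at 72 h by 1.5 ± 0.36 and by 1.64 ± 0.36 (edgeR adjusted p = 0.00267 and 0.00185). PGI1, phosphoglucose isomerase, fell at 48 h by 0.76 ± 0.14 and by 0.62 ± 0.14 (adjusted p = 0.000475 and 0.00384), and PGM1, the minor phosphoglucomutase, fell in crz1 by 0.82 ± 0.16 (adjusted p = 0.00073). These calls held in every alternative fit. PGM1 also fell at 48 h in crz1 cnb1 (-0.46 ± 0.16, edgeR adjusted p = 0.044), a call lost in 10 of 16 alternative fits.

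Of 20 Msn2/Msn4 stress genes, a list of known targets of these factors that holds none of the 10 genes, 7 rose at 72 h in each strain (22.6% of all genes in crz1 and 20.1% in crz1 cnb1), with 1 lower in crz1 (19.8%) and 2 lower in crz1 cnb1 (15.7%). At 12 h the counts were 2 higher and 1 lower in crz1 and 1 higher in crz1 cnb1, and at 48 h 3 and 2, and 1 and 1. With 1 library left out, 6 to 9 rose and 0 to 4 fell at 72 h in crz1 and 6 to 7 rose and 0 to 3 fell in crz1 cnb1, with 4 and 3 lower where untreated library 1 was the one left out. In libraries 2 and 3 only, 3 rose and 3 fell at 12 h, 4 and 5 at 48 h and 9 and 5 at 72 h in crz1. In crz1 cnb1 that setting gave 0 and 3, 1 and 9, and 7 and 4. The small heat shock protein genes HSP12 and HSP26 rose at 72 h by 2.83 ± 0.59 and 2.06 ± 0.42 in crz1 and by 2.19 ± 0.57 and 2.44 ± 0.42 in crz1 cnb1 (edgeR adjusted p at most 0.00689). TFS1, an inhibitor of carboxypeptidase Y, rose by 1.99 ± 0.18 and 1.56 ± 0.18, and the aldehyde dehydrogenase gene ALD3 by 2.28 ± 0.23 and 1.10 ± 0.22. These rises held in every alternative fit. HSP42 was in the lower group at 72 h (-2.13 ± 0.80 and -2.16 ± 0.80, adjusted p = 0.0401 and 0.0443), a call lost in each strain without untreated library 2 or 3 or any 1 of the 72 h libraries (adjusted p = 0.0841 to 0.131). The other lower gene in crz1 cnb1 was CTT1 (-1.54 ± 0.54, edgeR adjusted p = 0.0313), a call lost in 4 of 16 alternative fits. The median log2 change of the list at 72 h was 0.88 in crz1 and 0.66 in crz1 cnb1, beside -0.08 and -0.06 for the 10 storage carbohydrate genes.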

How the data were processed

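PolyA RNA from 24 yeast libraries (8 groups of 3) was analysed. The authors deposited raw counts per gene and TPM values, and the submitters' processing notes name featureCounts, DESeq2 and build R64. Aligner, strand setting and tool versions: not given in the sources used here. From the deposited counts, edgeR 4.0.16 (R 4.3.3) tested the 6089 of 7126 genes that passed filterByExpr, with TMM scaling, a robust quasi-likelihood fit over all libraries and 16 residual degrees of freedom. SE is the log2 change over the square root of F. Calls had a Benjamini-Hochberg adjusted p below 0.05 over all genes tested. The fit was first tested on simulated data. Depth was 21582317 to 22016465 counts per library.

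Alternative fits used RLE scaling, kept low-count genes, blocked on the library number (across strains, or separately in each strain), took only the libraries compared, or used DESeq2 1.42.0 or limma 3.58.1 on log2(TPM + 1) and log2(TPM + 0.1). Each library was also left out in turn. Deposited TPM values were used for levels of different genes. The genes and lists were chosen with earlier results of these data known. Genes named from the lists came mainly from the 4 called genes with the smallest p in a comparison. Not all of these are named, so the named genes are not a ranking. Left out were, for example, HXK2 at 48 h in crz1 (lower, edgeR adjusted p = 0.000265). GRE3 and BMH1 at 72 h in crz1 were left out too (higher, edgeR adjusted p = 5.53e-05 and 0.000527). MSN2 and CTT1 were named outside that rule, and trehalose and glycogen genes for their role. Library numbers, taken from the labels, were held to pair libraries where all 3 same-numbered pairs had correlated deviations from their group means above 0.1. This held for 12 against 0 h in crz1 (0.1136 to 0.6821) and between strains at 0 h (0.5601 to 0.7663) and 12 h (0.1689 to 0.5018), and for no other comparison.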

Additional observations from a re-analysis of the deposited data

How the results depend on the processing

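Of 2530 values of the 10 genes under an alternative, none reversed a call, 63 lost one, 101 gained one and 2366 stayed on the same side of the threshold; 205 uncalled values changed sign and have no direction. Counts are given below as genes of the 10 and as all genes called, in the order crz1 then crz1 cnb1 for changes, and at 12, 48 and 72 h for strain differences and interactions. The cause of each shift was not tested, beyond fewer libraries where some were left out.

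With the replicate block over all libraries, 2 and 1 of the 10 genes were called between 12 and 72 h and 1 between strains at 48 h. All genes called were 280 and 522 between 12 and 72 h, 457, 714 and 587 between strains, 9, 65 and 157 in the interactions and 67 in the joint test. With the block within strain, 1 of the 10 genes was called at 48 h in crz1 cnb1, and all genes called were 202 and 429, 29, 73 and 213, 22, 63 and 109, and 48 in the same order. The block changed no other count of the 10 genes by over 1.5 times.

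With only the libraries compared, 2 of the 10 genes were called at 12 h in crz1 cnb1, 0 and 4 between 12 and 72 h and 3 between strains at 72 h. All genes called were 629 at 48 h in crz1, 61 between 12 and 72 h in crz1, 12, 6 and 909 between strains and 4 and 216 in the interactions at 48 and 72 h. DESeq2 called 5 of the 10 genes at 48 h in crz1, 4 in crz1 cnb1, and 2 and 1 between 12 and 72 h. It called 273 and 532 genes between 12 and 72 h, 425 and 589 between strains at 12 and 48 h, 45, 97 and 175 in the interactions and 127 jointly. With no filter on low counts the interaction at 12 h called 0 genes.

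On log2(TPM + 1), limma called 1 of the 10 genes at 12 h and 1 at 72 h in crz1 and 1 at 48 h in crz1 cnb1, the same as on log2(TPM + 0.1). All genes called on these 2 scales were 73 and 70 between 12 and 72 h in crz1, 136 and 122 between strains at 12 h, 528 and 496 at 48 h, and 1 and 1, 75 and 74, and 67 and 60 in the interactions.

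Without both untreated libraries numbered 1, 3 and 7 of the 10 genes were called at 12 and 48 h in crz1 and 3, 5 and 5 in crz1 cnb1, and all genes called were 1, 0 and 18 in the interactions and 0 jointly. With libraries 2 and 3 only, 3, 9 and 7 of the 10 were called in crz1, 7, 8 and 6 in crz1 cnb1, 6 and 4 between 12 and 72 h, 7, 3 and 2 between strains, 2 in the interaction at 48 h and 2 jointly. All genes called were then 3065 at 48 h in crz1, 2011 at 12 h in crz1 cnb1, 1097 and 1095 between 12 and 72 h, 1173 and 1750 between strains at 12 and 48 h, 81 and 769 in the interactions at 12 and 48 h and 364 jointly. Both settings were chosen after the data were seen.

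With 1 library left out, the 10 genes called ranged from 0 to 1, 1 to 7 and 1 to 3 in crz1, from 0 to 2, 1 to 4 and 1 to 3 in crz1 cnb1, from 0 to 1 between 12 and 72 h in crz1, and from 0 to 1 between strains at 12 and 72 h. In crz1 cnb1 the count at 48 h was 4 without untreated library 1 and 1 without untreated library 2 or 3 or any 48 h library, and the count at 12 h was 2 without untreated library 1 and 0 without any other library compared. All genes called ranged from 668 to 1370 at 12 h and 898 to 1498 at 48 h in crz1 cnb1, 26 to 152 and 26 to 418 between 12 and 72 h, 34 to 475, 81 to 1886 and 141 to 488 between strains, 0 to 27, 0 to 915 and 3 to 87 in the interactions, and 0 to 503 jointly. Depth was near equal in all libraries and does not separate them.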

Other observations

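Regulators of storage carbohydrate genes were followed as a list of 21 stress and nutrient signalling genes. In crz1, 2 rose and 5 fell at 12 h (17.6% and 14.4% of all genes), 5 rose and 10 fell at 48 h (19.8% and 13.7%), and 7 rose and 3 fell at 72 h (22.6% and 19.8%). In crz1 cnb1 the counts were 2 and 2 (12.9% and 7.67%), 2 and 4 (14.3% and 9.54%), and 7 and 2 (20.1% and 15.7%). With 1 library left out, those that fell in crz1 ranged from 2 to 7 at 12 h, 5 to 11 at 48 h and 2 to 7 at 72 h, and those that rose at 48 h from 1 to 4. In crz1 cnb1 those that fell ranged from 1 to 2, 2 to 6 and 1 to 4. With libraries 2 and 3 only, the counts were 3 and 8, 4 and 11, and 8 and 8 in crz1 and 3 and 6, 3 and 7, and 9 and 5 in crz1 cnb1. The genes for the kinase Snf1, its target repressor Mig1 and the heat shock factor Hsf1 rose at 72 h in both strains, by 0.69 ± 0.16, 0.85 ± 0.17 and 0.77 ± 0.17 in crz1 and by 0.83 ± 0.16, 0.95 ± 0.17 and 1.13 ± 0.18 in crz1 cnb1 (edgeR adjusted p at most 0.00199).

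MSN4, which encodes one of the STRE-binding factors, fell at 48 h by 1.52 ± 0.39 in crz1 and by 1.95 ± 0.40 in crz1 cnb1 (edgeR adjusted p = 0.00599 and 0.00169). MSN2, the gene for the other, rose at 72 h in crz1 (0.59 ± 0.18, edgeR adjusted p = 0.0138), a call lost on log2(TPM + 1) (adjusted p = 0.132 by limma) and without 72 h library 1 (0.0652) or 3 (0.0503). These calls on SNF1, MIG1, HSF1 and MSN4 held in every alternative fit.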
